A study of Mus musculus with 8 samples.

Results

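Tetraspanins are small membrane proteins that gather integrins, receptors and enzymes into microdomains of the cell surface, and platelets are known for carrying several of them. The genes described here are Cd9, Cd63, Cd151, Cd82, Tspan9, Tspan32 and Tspan33, which were chosen by name as tetraspanins of platelets and make up 7 of the 43548 genes in the deposited table. CD9 is among the most abundant surface proteins of platelets and associates with integrin αIIbβ3, the fibrinogen receptor. CD151 and TSPAN32 take part in signalling through that integrin after it binds its ligand, and TSPAN9 lies in microdomains with the collagen receptor GPVI. CD63 sits in the membranes of dense granules and lysosomes and reaches the surface when platelets are activated. CD82 restrains adhesion and migration in many cells, and TSPAN33 escorts the sheddase ADAM10 and is known from red cell development.

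RNA was sequenced from washed platelets of 4 TNFdARE mice and 4 littermate controls, with 2 females and 2 males in each group by their labels and ages of 8 to 12 weeks. TNFdARE mice lack the AU-rich elements of the Tnf transcript throughout the body. Their TNF-α is high at all times, joints and bowel become inflamed, and backcrossing placed them on C57BL/6J. All 8 mice carry the treatment label Baseline and the same batch date, their sex stands under the tag for the cell line, and other parts of their descriptions give other mouse numbers and ages. Each mouse has a single deposited value per gene, read here as FPKM, a fragment count scaled by transcript length and by the library's total, so that levels may be set side by side between genes.

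Between 818 and 4917 genes were above 0 in a library, and 1 locus, AY036118, held 33.7% to 67.7% of the summed FPKM. The number of reads is unknown. A listed 0 can be a failed estimate, since the housekeeping gene Hprt was listed at 0 in all 8 libraries, Ppia in 6 and Gapdh in 5. All 12 platelet markers examined were above 0 in at least 1 library and 11 in all 8, with a summed FPKM of 895 to 1254 in controls and 946 to 1093 in TNFdARE mice. The platelet markers thus matched the platelet label, although the sum of the erythroid markers exceeded theirs in control mouse 3 and in each TNFdARE mouse. Erythroid markers, 11 of 12 in the table and all 11 above 0 somewhere, summed to 755 to 2205 FPKM in controls and 1115 to 14672 FPKM in TNFdARE mice, and 6 of the 8 tested were higher in TNFdARE mice at an unadjusted p under 0.05 (limma), beside 4.5% of all genes tested in either direction, and 0 of them passed adjustment (smallest adjusted p = 0.86). Nothing in the bulk values can tell fewer platelets from less RNA per platelet.

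The members lay at unequal levels. Cd9 was high in every mouse, Cd151 and Tspan9 were present at lower levels, and Tspan32, Tspan33, Cd63 and Cd82 were at or near 0 in most libraries. The start sites of Cd9 and Cd63 are shown because Cd9 is the highest member and Cd63 one of those listed at 0 in most libraries, and each has 1 start site in the RefSeq promoter table. Each sequence is the 250 bases before the start on GRCm38.p6, written 5′ to 3′ on the gene's own strand, at chr6:125494761-125495010 (minus strand) for Cd9 and chr10:128909095-128909344 (plus strand) for Cd63. Capitals mark the GC box GGGCGG, searched on both strands.

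Cd9: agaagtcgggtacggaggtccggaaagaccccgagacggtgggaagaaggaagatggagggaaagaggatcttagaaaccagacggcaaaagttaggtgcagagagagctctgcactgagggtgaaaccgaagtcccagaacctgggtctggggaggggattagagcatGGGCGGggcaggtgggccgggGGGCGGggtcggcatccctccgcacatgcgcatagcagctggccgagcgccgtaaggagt

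Cd63: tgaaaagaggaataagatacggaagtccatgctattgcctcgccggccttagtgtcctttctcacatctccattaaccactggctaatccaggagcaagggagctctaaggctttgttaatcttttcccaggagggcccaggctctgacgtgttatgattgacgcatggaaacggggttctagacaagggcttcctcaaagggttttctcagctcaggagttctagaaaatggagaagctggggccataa

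Cd9 held 2 GC boxes, starting 81 and 60 bases before the start site, and Cd63 held 0. GGGCGG was found in 32.7% of the 32851 promoter entries of that length. The Cd9 sequence contained 16 CpG dinucleotides and the Cd63 sequence 6, where the median over all entries was 6 (interquartile range 2 to 16). The GATA motif AGATAA (9.99% of entries), the ETS motif CCGGAAG (6.91%) and the TATA box TATAAA (12.4%) were in neither sequence. The sequence of Tspan32, a low member, held 1 GATA motif and 1 ETS motif, with 0 GC boxes and 1 CpG dinucleotide. The Cd63 sequence lies inside the gene as annotated by GENCODE, which starts at 128900989, and the bases before that start were not examined. The GC box did not separate high from low members: Tspan33, with 1 start site, held 2 GC boxes and 13 CpG dinucleotides, and of the 4 start sites of Cd82 2 held a GC box. A match describes these letters only.

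Cd9 (ENSMUSG00000030342, chromosome 6, 125460266 to 125494791, GRCm38/mm10, minus strand) gave 130, 132, 230 and 177 FPKM in control mice 1 to 4. In TNFdARE mice 1 to 4 it gave 148, 159, 133 and 90.6 FPKM. The lowest value was that of TNFdARE mouse 4, the highest that of control mouse 3, and the groups overlapped. Cd9 ranked between 27th and 54th of all genes in each library by FPKM, above at least 95.6% of the genes detected there. Its share of the summed FPKM left after AY036118 ran from 0.218% in TNFdARE mouse 4 to 0.628% in control mouse 3. Mean levels were 167 ± 46.7 FPKM in controls and 133 ± 29.8 FPKM in TNFdARE mice (SD, n = 4 each, two-sided exact permutation test, p = 0.31).

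On the log2(FPKM + 1) scale, Cd9 differed by -0.32 between TNFdARE and control platelets (standard error 0.38, 95% interval -1.15 to 0.50, Benjamini-Hochberg adjusted p = 0.87 over the 1534 genes that limma tested). The median over all genes tested was -0.30 and moved to -0.06 after quantile normalization, where Cd9 was at -0.13. The difference for Cd9 was within the spread between mice. It was close to the shift of all genes as deposited but not in each alternative, with -0.27 for Cd9 against -0.01 for all genes under sample weights and -0.32 against -0.14 with a pseudocount of 5. It was -0.34 within females and -0.31 within males, with 2 mice per sex and genotype. Set against Itga2b, the αIIb subunit that is its neighbour on the platelet surface, Cd9 was 2.09, 1.64, 2.51 and 3.07 times as high in control mice 1 to 4. The same ratio was 3.56, 2.35, 1.76 and 2.19 in TNFdARE mice 1 to 4 (exact permutation p = 0.80, 1 of 3 such ratios tested after the data were seen). Cd9 exceeded Itga2b in every one of the 8 libraries. Transcripts annotated on the opposite strand of Cd9 (Gm28809 and Gm26728) were listed at 0 throughout.

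**Figure D1:**
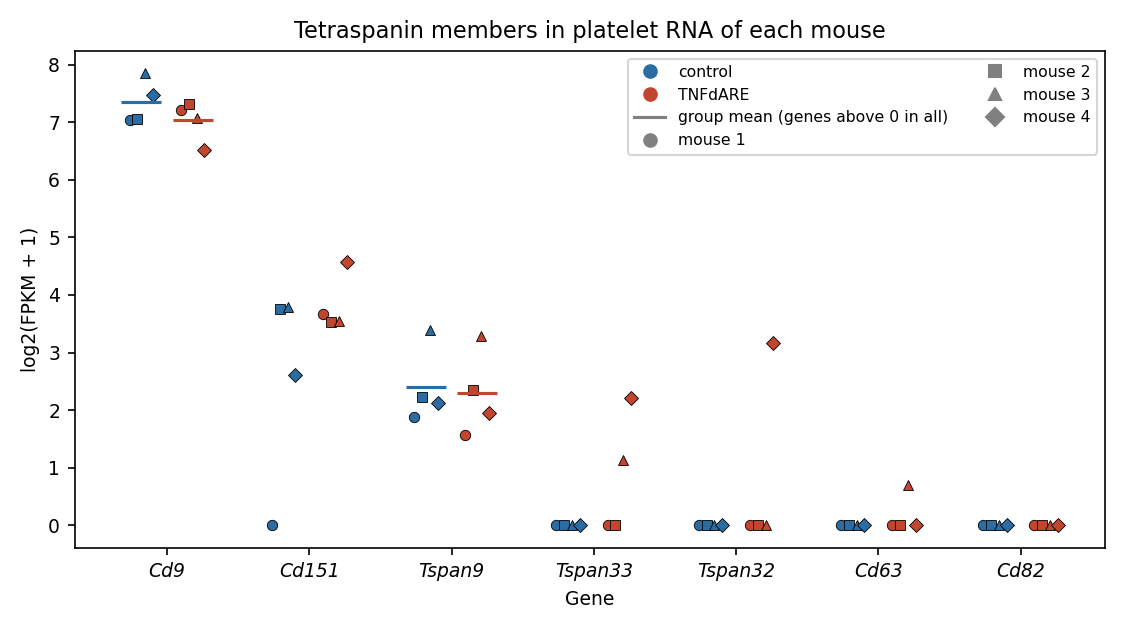
Level of each member in each mouse, as log2(FPKM + 1), with controls in blue, TNFdARE mice in red, 1 symbol per mouse number and a bar for the group mean of Cd9 and Tspan9, the genes above 0 in all 8 libraries. Cd9 lies above all other members in every mouse, and Cd151 is listed at 0 in control mouse 1.

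Cd151 (ENSMUSG00000025510, chromosome 7, 141467392 to 141471473, plus strand) was above 0 in 7 of 8 libraries. It was listed at 0, 12.5, 12.8 and 5.09 FPKM in control mice 1 to 4 and at 11.8, 10.6, 10.7 and 22.8 FPKM in TNFdARE mice 1 to 4. Control mouse 1 was the lowest and TNFdARE mouse 4 the highest, while the other TNFdARE mice lay below control mice 2 and 3. The log2 fold change was 1.29 (standard error 0.81, 95% interval -0.46 to 3.05, adjusted p = 0.86, limma), and the exact permutation p on FPKM was 0.29. Without control mouse 1 the log2 fold change was 0.45 (standard error 0.61). The difference was 2.75 within females, which include control mouse 1, and -0.16 within males. The test of that genotype by sex difference gave -2.92 for males against females (standard error 1.47, unadjusted p = 0.067, adjusted p = 0.92, limma). Relative to Itga2b, Cd151 ranged from 0 to 0.155 in controls and from 0.140 to 0.552 in TNFdARE mice (exact permutation p = 0.057).

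Cd151 is overlapped on the opposite strand by Gm10575, with 193 identical bases between their transcripts. Gm10575 was listed at 5.65, 2.53, 2.62 and 6.599 FPKM in control mice 1 to 4 and at 0, 2.88, 2.81 and 3.65 FPKM in TNFdARE mice 1 to 4. The library with Cd151 at 0 therefore had the second highest value of Gm10575, and the only library with Gm10575 at 0, TNFdARE mouse 1, had Cd151 above 0. Whether the counting used strand is not given in the sources used here, and the part of Gm10575 in the Cd151 values was not tested.

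Tspan9 (ENSMUSG00000030352, chromosome 6, 127961396 to 128143594, minus strand) was above 0 in all 8 libraries, as was Cd9, which lies 2466604 bases away on the same chromosome. Control mice 1 to 4 gave 2.68, 3.68, 9.55 and 3.34 FPKM, and TNFdARE mice 1 to 4 gave 1.98, 4.09, 8.78 and 2.87 FPKM. Mouse 3 was the highest of each group and mouse 1 the lowest, and the ranges nearly coincided. The means were 4.81 ± 3.18 and 4.43 ± 3.02 FPKM (SD, n = 4 each, exact permutation p = 0.71). Its log2 fold change was -0.11 (standard error 0.66, 95% interval -1.54 to 1.31, adjusted p = 0.98, limma). That sign is not settled, since the value was 0.40 after quantile normalization and 0.22 without control mouse 3. The ratio of Tspan9 to Itga2b was 0.063 ± 0.029 in controls and 0.073 ± 0.030 in TNFdARE mice (SD, n = 4 each, exact permutation p = 0.49).

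Tspan33 and Tspan32 were listed above 0 in TNFdARE libraries but in no control library. The share of all genes with that pattern was not counted. TNFdARE mouse 3 had the most genes above 0, at 4917, against 1225 in TNFdARE mouse 4 and 1479 to 2742 in controls. Tspan33 (ENSMUSG00000001763, chromosome 6, 29694222 to 29718559, plus strand) was at 1.19 FPKM in TNFdARE mouse 3 and 3.64 FPKM in TNFdARE mouse 4. It was listed at 0 in the other 6 libraries (exact permutation p = 0.43). Tspan32 (ENSMUSG00000000244, chromosome 7, 143005046 to 143019644, plus strand) was at 7.93 FPKM in TNFdARE mouse 4 and listed at 0 in the other 7 libraries (exact permutation p = 1). TNFdARE mouse 4 therefore held most of the signal of both genes. Tspan32os, annotated antisense to Tspan32, was listed at 0 throughout.

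Some genes of other blood cells also had high values in that library. The tetraspanin Cd37, known from B cells and other leukocytes, was at 22.8 FPKM in TNFdARE mouse 4 and between 0 and 0.871 FPKM in the other 7 libraries. The neutrophil gene S100a9 was at 10.3 FPKM there and listed at 0 elsewhere. Of the 10 neutrophil markers, 4 were above 0 in any library, and their summed FPKM was 0 in all controls and 0 to 10.3 in TNFdARE mice. Only S100a9 of them was above 0 in TNFdARE mouse 4. Mpo, Elane and Ngp were above 0 in TNFdARE mouse 3 alone, at 0.190, 0.121 and 0.269 FPKM. S100a8, Ly6g, Camp, Retnlg, Ltf and Cxcr2 were listed at 0 in all 8 libraries. Monocyte markers, 3 of the 7 in the table above 0, summed to 30.8 to 52.9 FPKM in controls and 12.0 to 36.1 FPKM in TNFdARE mice, with Cd14, Ly6c2 and Ccr2 at 0 in all 8. TNFdARE mouse 4, at 25.1 FPKM, lay below every control in that sum. Lyz2, which makes up most of it, was at 18.1 FPKM there and at 30.8 to 50.3 FPKM in controls, whereas Ctss was at 7.08 FPKM there, at 2.604 FPKM in control mouse 3 and at 0 elsewhere. Of the 7 B cell markers 3 were above 0, with sums of 0 to 11.1 FPKM in controls and 0.129 to 13.7 FPKM in TNFdARE mice, and Ms4a1, Cd79a and Cd79b were at 0 in all 8. The lowest TNFdARE value of the B cell marker Cd74, 0.129 FPKM, was in TNFdARE mouse 4. Of the 7 T cell markers 2 were above 0, with sums of 0 to 1.02 FPKM in controls and 0 to 0.822 FPKM in TNFdARE mice, and Cd3e, Cd3d, Cd4 and Cd8a were at 0. The erythroid sum was also highest in TNFdARE mouse 4, at 14672 FPKM, followed by 6937 FPKM in TNFdARE mouse 1, where Tspan33 was listed at 0, and 2938 FPKM in TNFdARE mouse 3, the other library with Tspan33. The globin gene Hbb-bs followed that order, at 4449, 1582 and 1105 FPKM, and the remaining globins and Bpgm were highest in TNFdARE mouse 4 too. Alas2, the first enzyme of haem synthesis in red cells, was highest in TNFdARE mouse 1, at 109 FPKM, against 84.1 FPKM in TNFdARE mouse 4 and 30.03 FPKM in TNFdARE mouse 3. The part of leukocyte or erythroid RNA in the values of Tspan32 and Tspan33 was not tested.

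**Figure D2:**
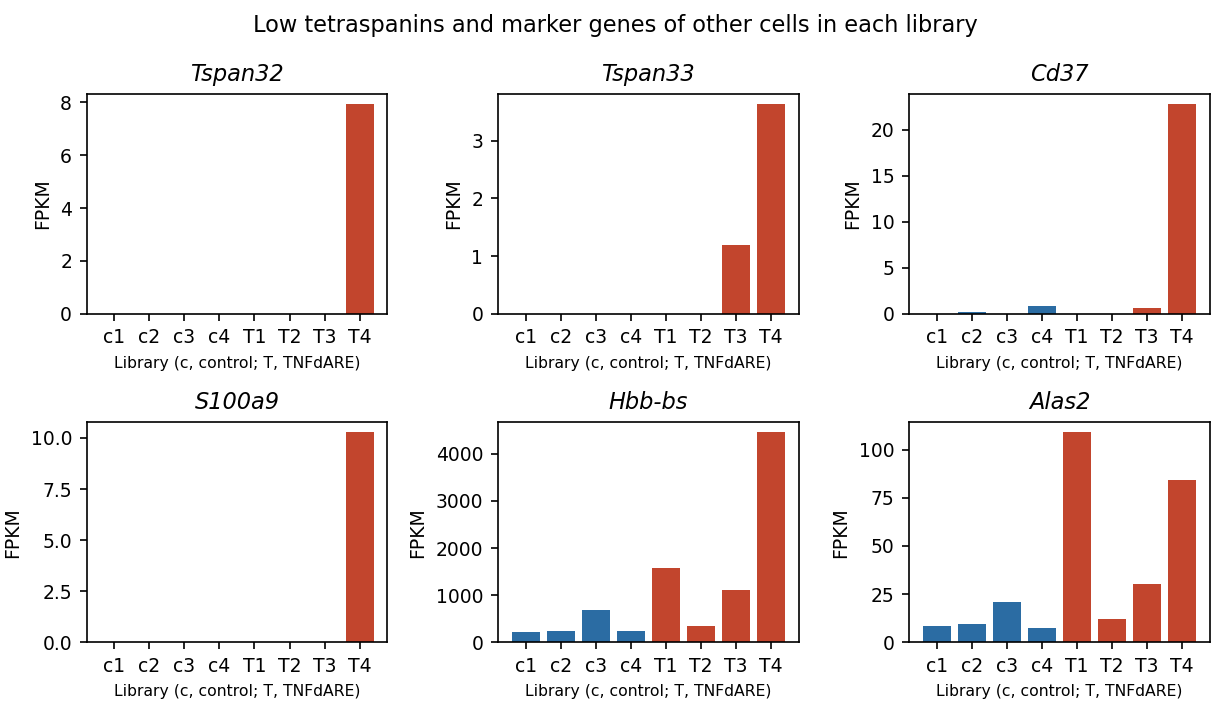
FPKM of Tspan32, Tspan33, the leukocyte tetraspanin Cd37, the neutrophil gene S100a9 and the erythroid genes Hbb-bs and Alas2 as 1 bar per library, with controls c1 to c4 in blue, TNFdARE mice T1 to T4 in red and a separate axis per gene. Tspan32, Tspan33, Cd37, S100a9 and Hbb-bs each reach their highest value in TNFdARE mouse 4, and Alas2 in TNFdARE mouse 1.

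Cd63 (ENSMUSG00000025351, chromosome 10, 128900989 to 128912822, plus strand) was listed at 0 in 7 libraries and at 0.627 FPKM in TNFdARE mouse 3, the library with the most genes above 0. A processed copy, Cd63-ps, shares 858 bases with it at 98.0% identity and had a mean of 0.022 FPKM over the 8 libraries. How fragments matching both were assigned is not given in the sources used here. Cd82 (ENSMUSG00000027215, chromosome 2, 93419111 to 93463140, minus strand) was listed at 0 in all 8 libraries. These zeros show no absence of the transcripts, given the zeros of genes that most cells express.

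Of the 7 members, 3 had a mean of at least 1 FPKM over the 8 mice and entered the comparison between genotypes. Tspan32 fell just short, at 0.992 FPKM. Of these 3, 0 had an unadjusted p under 0.05 by limma, beside 69 of all 1534 genes tested (4.5%), and 0 of the 1534 had an adjusted p under 0.05. The 69 calls were 27 higher and 42 lower in TNFdARE mice, against 34 higher and 25 lower after quantile normalization. The groups overlapped for each of the 3, beside 3.32% of genes tested whose groups did not overlap. The median log2 fold change of the 3 members was -0.11, with 1 on the higher side and 2 on the lower, and it turned to 0.40 after quantile normalization and 0.50 with sample weights, where Tspan9 was on the higher side. Without a filter on low values, 6 members could be fitted and 0 had an unadjusted p under 0.05, beside 85 of 6566 genes (1.29%) in that fit. The fitted values were then 0.84 for Tspan33 (standard error 0.54), 0.79 for Tspan32 (0.71) and 0.18 for Cd63 (0.15), all against control groups listed at 0, so they depend on the pseudocount of 1. With 4 mice per group the intervals of Cd9, Cd151 and Tspan9 leave room for differences of 1 on the log2 scale or more in at least 1 direction.

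**Figure D3:**
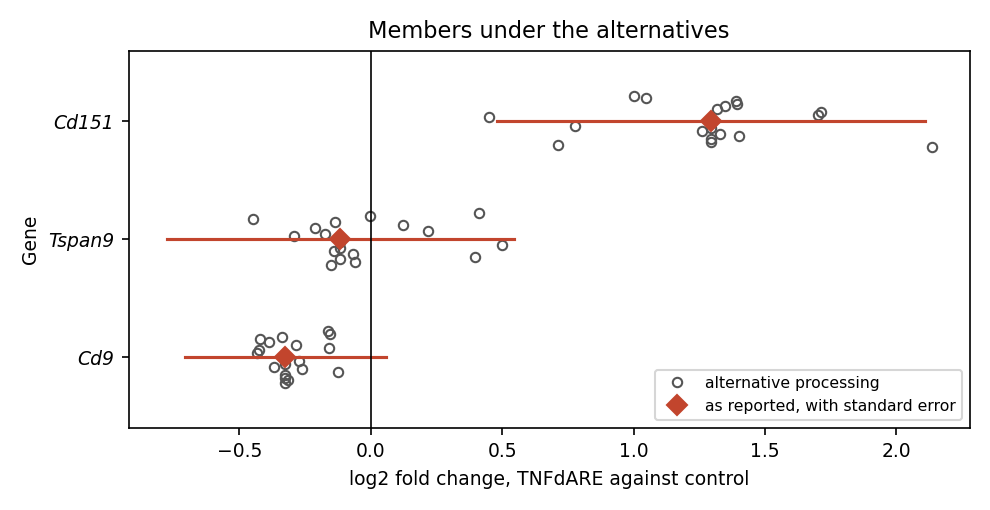
Log2 fold change of Cd9, Tspan9 and Cd151 in TNFdARE against control platelets, with the reported value and its standard error in red and each alternative processing as an open circle. Cd9 stays between -0.43 and -0.13 and Cd151 between 0.45 and 2.13, whereas Tspan9 lies on both sides of 0.

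Within libraries, the order of the members by mean log2(FPKM + 1) was Cd9, Cd151, Tspan9, Tspan33, Tspan32, Cd63 and Cd82, with zeros taken as listed. The neighbouring pairs and their directions were taken from the same 8 libraries, so their p-values are not those of an independent test. The level was 7.19 ± 0.39 for Cd9 and 2.35 ± 0.66 for Tspan9 (SD over 8 mice). Cd9 exceeded Cd151 in 8 of 8 libraries, by 4.01 ± 1.47 (mean difference and SD on the log2 scale, exact sign-flip permutation test, p = 0.0078, adjusted p = 0.047 over 6 neighbouring pairs), where 0.0078 is the smallest p that 8 libraries can give. Cd151 exceeded Tspan9 in 7 of 8 libraries, by 0.84 ± 1.39, which did not pass the test (exact sign-flip permutation p = 0.13, adjusted p = 0.25). Tspan9 exceeded Tspan33 in 7 of 8 libraries, by 1.93 ± 1.03 (exact sign-flip permutation p = 0.016, adjusted p = 0.047). That call takes the listed zeros of Tspan33 in 6 libraries as its level. The neighbours below Tspan33 could not be compared, since 6 or 7 of the 8 libraries listed both genes of a pair at 0. With 7 libraries the smallest p is 0.016. Both calls were lost without any one of control mice 2, 3 and 4 or TNFdARE mice 1, 2 and 3. Without control mouse 1 or TNFdARE mouse 4 there were again 2 calls, but that count does not say for which pairs. Cd9 kept the higher value in every library.

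The rest of the family was examined to place the members. Of 24 other tetraspanin genes, 9 were above 0 in at least 1 library and 15 were listed at 0 in all 8. Cd81 is the close relative of Cd9 known from B cells and many other cells. By mean level over the 8 libraries it was the second most abundant tetraspanin, ahead of Cd151, although Tspan17 exceeded it in control mouse 1. Cd81 lies 33094 bases from Tspan32 on chromosome 7 and was above 0 in all 8 libraries. Cd81 was at 4.77, 43.0, 40.9 and 13.1 FPKM in control mice 1 to 4 and at 12.5, 19.8, 26.5 and 25.3 FPKM in TNFdARE mice 1 to 4. The fitted difference for Cd81 was 0.11 on the log2 scale (standard error 0.68, limma adjusted p = 0.99). Tspan17 and Tspan14 belong with Tspan33 to the subgroup that escorts ADAM10. Tspan17 was above 0 in all 8 libraries, from 0.507 to 10.3 FPKM in controls and from 3.41 to 16.5 FPKM in TNFdARE mice. Tspan14 reached 4.94 FPKM in controls and 4.29 FPKM in TNFdARE mice and was listed at 0 in control mouse 1 and TNFdARE mouse 1. Each of these thus had more libraries above 0 than Tspan33, with 8 and 6 against 2. Tspan2 lay between 1.51 and 4.71 FPKM in controls and between 0 and 3.67 FPKM in TNFdARE mice. Of the 5 other tetraspanins tested, 0 had an unadjusted p under 0.05 (4.5% of all genes did), 4 were on the higher side and 1 on the lower, and the median log2 fold change was 0.11. Over all genes tested, 568 were on the higher side and 966 on the lower. Tspan14, at 0.01, was on the lower side when libraries were rescaled without AY036118. The split of the 5 turned to 2 higher and 3 lower without control mouse 1, with a median of -0.48, and likewise without TNFdARE mouse 3 (-0.02), and the median was -0.05 without TNFdARE mouse 4.

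Cd9 supplied 85.3%, 66.3%, 76.0% and 81.0% of the FPKM summed over all 31 tetraspanin genes in control mice 1 to 4. In TNFdARE mice 1 to 4 its share was 80.4%, 77.5%, 69.3% and 46.3%. The lowest share was in TNFdARE mouse 4, and the other 7 libraries lay at 66.3% or above. That library had the lowest Cd9, at 90.6 FPKM, and the highest values of Cd151, Cd37, Tspan17, Tspan32 and Tspan33. Cd81 contributed 3.12% to 21.5% in controls and 6.78% to 13.8% in TNFdARE mice. Tetraspanins together made up between 0.459% and 0.825% of the summed FPKM left after AY036118 in controls and between 0.471% and 0.645% in TNFdARE mice.

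**Figure D4:**
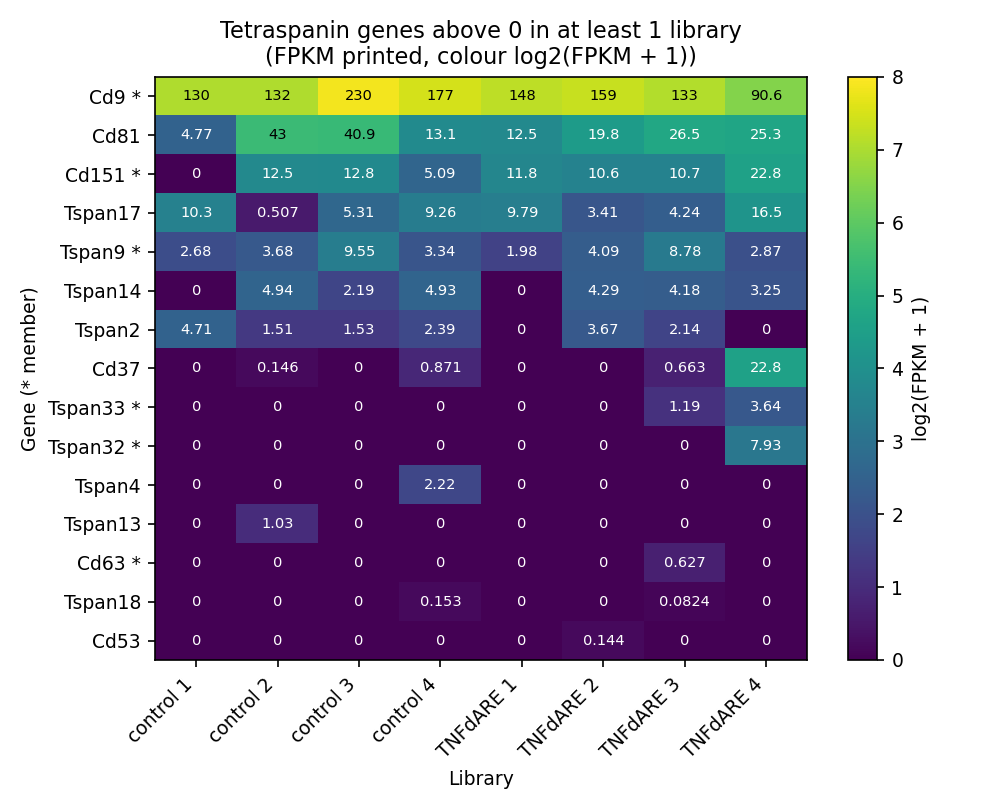
FPKM of the 15 tetraspanin genes above 0 in at least 1 library, printed in each cell, with rows ordered by mean level, members starred, columns for the 8 libraries and colour for log2(FPKM + 1). Cd9 has the highest value in every library, and Cd81 and Tspan17, which are not members, are above 0 throughout.

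Genes known to act with tetraspanins were read from the same fit. Of the 20 tested, 0 had an unadjusted p under 0.05 (4.5% of all genes did), with 6 higher and 14 lower and a median log2 fold change of -0.26 against -0.30 for all genes. The 5 integrin subunits tested were all on the lower side as deposited, with a median of -0.39, whereas 1 or 2 of them were on the higher side after quantile normalization, with sample weights, without control mouse 4, without TNFdARE mouse 4 and without both TNFdARE libraries with the fewest genes above 0. Itga2b, the αIIb chain, ranged from 57.6 to 91.4 FPKM in controls and from 41.4 to 76.0 FPKM in TNFdARE mice (log2 fold change -0.39, standard error 0.43, adjusted p = 0.87, limma). Its β3 partner Itgb3 was at 15.1 to 37.0 FPKM and 10.7 to 25.6 FPKM (-0.40, standard error 0.55). Itgb1, the β1 chain that pairs with laminin and collagen binding subunits, was at 21.5 to 36.8 FPKM in controls and 7.31 to 27.5 FPKM in TNFdARE mice (-0.88, standard error 0.57). Itga6, a laminin receptor subunit and the classical partner of CD151, was at 20.2 to 27.0 FPKM and 4.07 to 32.6 FPKM (-0.26, standard error 0.64).

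The collagen receptor gene Gp6, whose product shares microdomains with TSPAN9, was at 0.831 to 12.4 FPKM in controls and 1.15 to 7.37 FPKM in TNFdARE mice. The fitted difference for Gp6 was -0.66 on the log2 scale (standard error 0.78, limma adjusted p = 0.87). Adam10, the sheddase escorted by TSPAN14, TSPAN17 and TSPAN33, was above 0 in all 8 libraries, at 1.05 to 11.4 FPKM in controls and 0.742 to 3.06 FPKM in TNFdARE mice (-0.58, standard error 0.74). Of the 9 surface receptors tested, 5 were on the higher side and 4 on the lower, with a median of 0.03 that became 0.34 with sample weights (8 higher, 1 lower), 0.23 after quantile normalization and -0.02 after rescaling without AY036118, and that ran from -0.13 to 0.28 when single mice were left out. Of all 20 partner genes tested only Clec1b, which encodes the podoplanin receptor CLEC-2 and was singled out after its values were seen, had groups that did not overlap, beside 3.32% of all genes tested. It was at 14.8 to 47.1 FPKM in controls and 49.9 to 61.2 FPKM in TNFdARE mice (exact permutation test, p = 0.029, which is the lowest value this group size allows). Its limma fit gave 0.76 on the log2 scale (standard error 0.49, adjusted p = 0.86). Of the 13 genes for sorting CD63 to lysosomes, granules and vesicles, 5 were tested, with Sdcbp on the higher side and 4 on the lower, a median of -0.54, and 0 passing. After quantile normalization Lamp2 was on the higher side as well, with sample weights and without both TNFdARE libraries with the fewest genes above 0 Sdcbp was on the lower side and Lamp1 and Lamp2 on the higher, and without TNFdARE mouse 1 the median was 0.01.

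**Figure D5:**
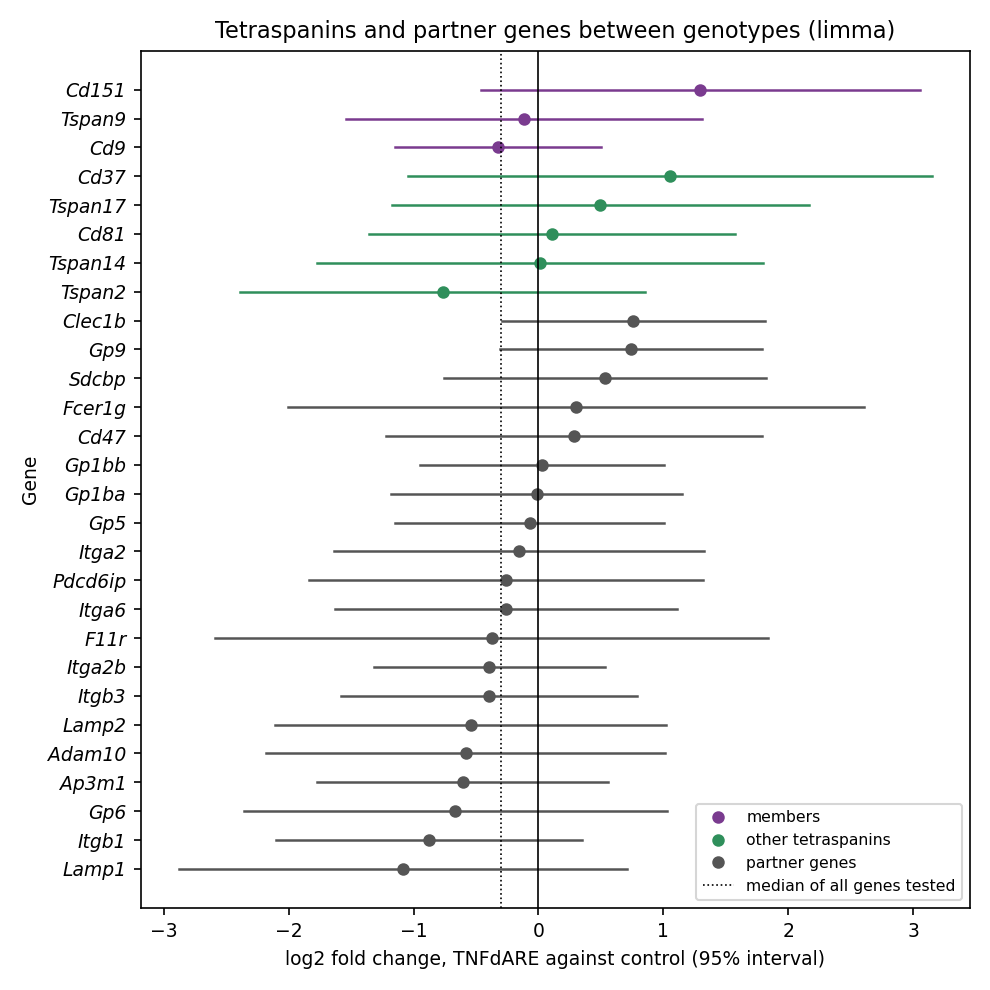
Log2 fold change in TNFdARE against control platelets with its 95% interval from limma for the 3 members, the 5 other tetraspanins and the 20 partner genes tested, with a solid line at 0 and a dotted line at the median of all genes tested. The interval of each gene shown includes 0.

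The genes most like each member in their pattern over the 8 libraries were sought among the 409 genes above 0 in all of them, by the root mean square difference between mean-centred log2(FPKM + 1) profiles. For Cd9 these were A730017L22Rik (0.21), Gpr56 (0.23) and C330021F23Rik (0.24), where the median over all genes was 0.72. For Tspan9 they were Ube2o (0.31), Gatad1 (0.33) and Myl6 (0.35), where the median was 0.88. Ube2o, like Tspan9, was highest in mouse 3 of each group, at 5.78 FPKM in the control and 5.89 FPKM in the TNFdARE mouse. These values describe 8 libraries that share their scaling, and profiles with little spread are close to one another by construction.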

How the data were processed

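Platelet RNA of 8 mice was sequenced as 150 bp reads. Cufflinks and mm10 are named in the submitters' processing notes, and the study's list of resources includes GSNAP. The annotation, versions, strand setting and treatment of reads with several matches are not given in the sources used here. The values that the authors deposited, 1 for each gene in each mouse, were read as FPKM because columns sum to unequal totals and hold very small estimates. The unit is inferred. Sequencing depth is unknown: low values times transcript length were within 0.1 of a whole multiple of any step for at most 37.1% of values in a library. There were 0 unmapped value columns, and 0 pairs of libraries held identical values.

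Genes whose FPKM averaged 1 or more over the 8 mice were compared on log2(FPKM + 1) with limma 3.58.1 (R 4.3.3, trend, Benjamini-Hochberg over all genes tested). Fold changes on this scale understate low genes. A gene was called at an unadjusted p under 0.05. Single values had two-sided exact permutation tests, whose smallest p is 0.029 for 4 mice against 4. The labels name the mice as separate animals. On simulated data for 1534 genes with 200 changed by 3 on the log2 scale, limma recovered 59.5% past an adjusted threshold of 0.05 and made 1 false call. Members, lists, tests and the naming rule were chosen with earlier results of these data known. Named genes were all members, other tetraspanins with a mean of at least 1, chosen partners (Itga2b, Itgb3, Itga6, Itgb1, Gp6 and Adam10), partner genes called, and the 3 genes most like each member above 0 in all libraries. Overlapping and similar genes, housekeeping genes, single marker genes and the ratios to Itga2b were chosen after their values were seen. Alternatives changed the pseudocount, filter, scaling, limma settings and covariates and left out each mouse. Positions are from GENCODE M21, promoters from RefSeq GRCm38.p6. BLAST 2.17.0 compared transcripts at 95% identity over 150 bases or more. Figures used matplotlib 3.10.9.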

Additional observations from a re-analysis of the deposited data

Results flagged for a closer look

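In 9 of 31 groups of 4 mice, 1 mouse lay far from the others by Dixon's criterion. For normally distributed values chance gives about 1.55. FPKM values with listed zeros are not so distributed, so the count of 9 does not measure an excess over chance. The ratio is the gap to the nearest mouse divided by the range of the group. Among the members, TNFdARE mouse 4 was far above the other TNFdARE mice in Tspan32 (1) and Cd151 (0.905), TNFdARE mouse 3 in Cd63 (1), and control mouse 3 far above the other controls in Tspan9 (0.854). Among the other tetraspanins, Cd37 had its highest value in TNFdARE mouse 4 (0.971) and, among controls, in control mouse 4 (0.832). Among the partners, control mouse 2 was the highest control in Itga6 (0.877) and Adam10 (0.884), and control mouse 1 the lowest in Gp6 (0.900). The ratios of 1 belong to genes listed at 0 in the other 3 mice. The log2 fold change of Cd151 was 1.05 without TNFdARE mouse 4.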

How the results depend on the processing

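Under 20 alternatives, 1 of them chosen after seeing the data, 0 members and 0 other tetraspanins had an unadjusted p under 0.05, and 0 of all genes had an adjusted p under 0.05 (smallest 0.15). Cd9 kept its direction throughout (-0.43 to -0.13) and so did Cd151 (0.45 to 2.13). Tspan9, at -0.11, changed sign with quantile normalization (0.40), with sample weights (0.50), without the pair of TNFdARE libraries with the fewest genes above 0 (0.41, chosen after seeing the data), without control mouse 3 (0.22) and without TNFdARE mouse 1 (0.12). Over all single mice left out it ran from -0.45 to 0.22. The causes were not tested.

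Of all genes, 69 had an unadjusted p under 0.05, against 36 when a mean of at least 5 FPKM was required, which tests 583 genes, and 111 with sample weights. Leaving out 1 mouse at a time gave 46 to 76. Of the calls 39.1% were higher, against 57.6% after quantile normalization, 66.7% with sample weights and 78.4% of 51 without the same pair of TNFdARE libraries. With sample weights 1 partner gene, Clec1b, passed. The number of neighbouring members told apart in level was 2. It was 3 after quantile normalization, 1 with a pseudocount of 5 and 1 when a mean of at least 5 FPKM left a single pair. Leaving out 1 mouse at a time gave between 0 and 2. The median of the members ran from -0.15 to 0.59, over 2 to 6 members. With the same 3 members it reached 0.40 after quantile normalization and 0.50 with sample weights.

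Nothing in the labels says that mice with the same number in their titles share a litter or cage. Their deviations correlated at -0.067 to 0.060, and control mouse 1 was the only control that correlated best with its own number. Library names of control mouse 1 and TNFdARE mouse 1 share a number too, as do those of control mouse 4 and TNFdARE mouse 3 (correlations 0.060 and 0.042). What it stands for is not given in the sources used here, and these pairs were not used as a block. With the replicate number as a block, 64 genes and 0 members had an unadjusted p under 0.05, and the log2 fold change of Cd9 was -0.32. Unknown depth limits every statement on a listed 0.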
